A study of Mus musculus with 10 samples.

Results

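Expression of 10 genes for cytosolic HSP90, its cofactors and the heat shock factors was compared between old and young mouse aortae. The genes were taken by symbol from the 55453 genes of the count table, and all 10 were found there and passed the filter on low counts that left 14614 genes for testing. They are Hsp90aa1 and Hsp90ab1 (cytosolic HSP90), Stip1 and Ahsa1 (HSP90 cochaperones), Bag2 (a cofactor of HSP70), Hsf1, Hsf2 and Hsf4 (heat shock factors), and Ier5 and Camk2b (modifiers of HSF1). RNA-seq was performed on the aortae of male C57BL/6 mice without treatment, 5 young mice of 14.5 weeks and 5 old mice of 92.5 weeks by the labels, with periadventitial fat removed and 1 poly(A) library per mouse. The study asked which transcripts differ with age in the vessel wall. Hsp90aa1, Hsp90ab1, Bag2, Ier5 and Camk2b were among the stress response genes that the study itself picked from these samples, so that their direction here is not independent evidence.

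HSP90 is an ATP-driven chaperone that completes the folding of kinases, steroid receptors and other signaling proteins, and its clients in the vessel wall include endothelial nitric oxide synthase and soluble guanylate cyclase. STIP1 hands clients over from HSP70 to HSP90, and AHSA1 stimulates the ATPase of HSP90. In unstressed cells chaperones hold HSF1 inactive. On stress HSF1 trimerizes, binds heat shock elements in promoters and raises the transcription of chaperone genes, HSP90 among them.

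Total counts ranged from 19640401 to 22886153 per library, and smooth muscle markers (Myh11, Acta2, Tagln, Cnn1 and Smtn) summed to 33466 to 41399 CPM (library-size-scaled counts) in the 10 libraries, far above the endothelial list at 443 to 1517. These are bulk samples, in which fewer cells of a type and less RNA per cell cannot be told apart. Macrophage and T cell markers differed with age. Macrophage markers (Cd68, Csf1r, Adgre1, Mrc1 and Lyz2) summed to 260.1 to 367 CPM in young and 357 to 738 in old mice. Of the 5, 2 were called higher by edgeR (6.48% of all tested genes), and 5 were higher at an unadjusted p below 0.05 (2054 of 14614 tested genes). T cell markers (Cd3e, Cd3d and Cd3g) summed to 0.0459 to 0.826 CPM in young and 1.05 to 4.06 in old mice, with no overlap, and Cd3g, the one tested, was called higher. Their part in the results was not tested. Young replicate 1 stood apart from the other young mice in several of the genes described here: it had the lowest young value for 6 of the 10, against 28.2% of all tested genes for which it was the lowest. It also had the highest summed adipocyte markers of all libraries, 382.7 CPM against 94.4 to 188 in the other young mice and 56.2 to 148 in old mice, and the highest summed immediate early genes, 2215 against 979 to 1898 in the other young mice. The part of these levels was not tested either, and the results that rest on this mouse are given with and without it.

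Ier5, Hsp90aa1, Camk2b and Bag2 were lower in old aortae, at 0.506, 0.588, 0.661 and 0.737 of the young mean, and Hsf4 was higher, at 1.80 times the young mean. The old means of Stip1, Ahsa1 and Hsp90ab1 were 0.714 to 0.779 of the young means but did not pass the test with all 10 mice, and neither did Hsf1 or Hsf2. So 5 of 10 genes were called by edgeR at an adjusted p below 0.05 (11.5% of all tested genes), 4 of them lower (4.99% of all) and 1 higher (6.48% of all). In all, 9 of the 10 had a log2 fold change (old over young) below 0, as had 49.2% of tested genes, and 8 were lower at an unadjusted p below 0.05, as were 12.6%. The median log2 fold change of the 10 genes was -0.41, and that of all tested genes was 0.0034. The groups did not overlap for Camk2b (old below young, 4.55% of tested genes) and Hsf4 (old above young, 5.37%), which makes 2 of 10 genes against 9.92%.

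The calls depended on single mice. Without young replicate 1, 8 of the 10 genes were called lower, against 7.73% of all genes tested then, and the groups did not overlap for 6 lower genes (8.87% of all) and for Hsf4 (old above young, 8.28% of all). This mouse was singled out after it was seen to be the lowest young mouse in 6 of these same genes. Leaving it out had to raise their young means, and the shares of all genes do not correct for that choice. The results without it describe dependence on 1 mouse and are no separate support. With all mice, DESeq2 called 6 of the 10 genes lower (6.33% of all), adding Hsp90ab1 and Ahsa1, and limma-voom with sample quality weights called 7 lower (8.29% of all), adding Stip1 as well. The number called lower fell to 2, Ier5 and Camk2b, without any one of young replicates 4 and 5 and old replicates 2, 3, 4 and 5. Hsf4 was no longer called without any one of young replicates 2, 3, 4 and 5 and old replicates 1, 2 and 3. Normalized counts below are counts divided by the size factor of the library, and p-values measure the spread between these 10 mice.

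**Figure D1:**
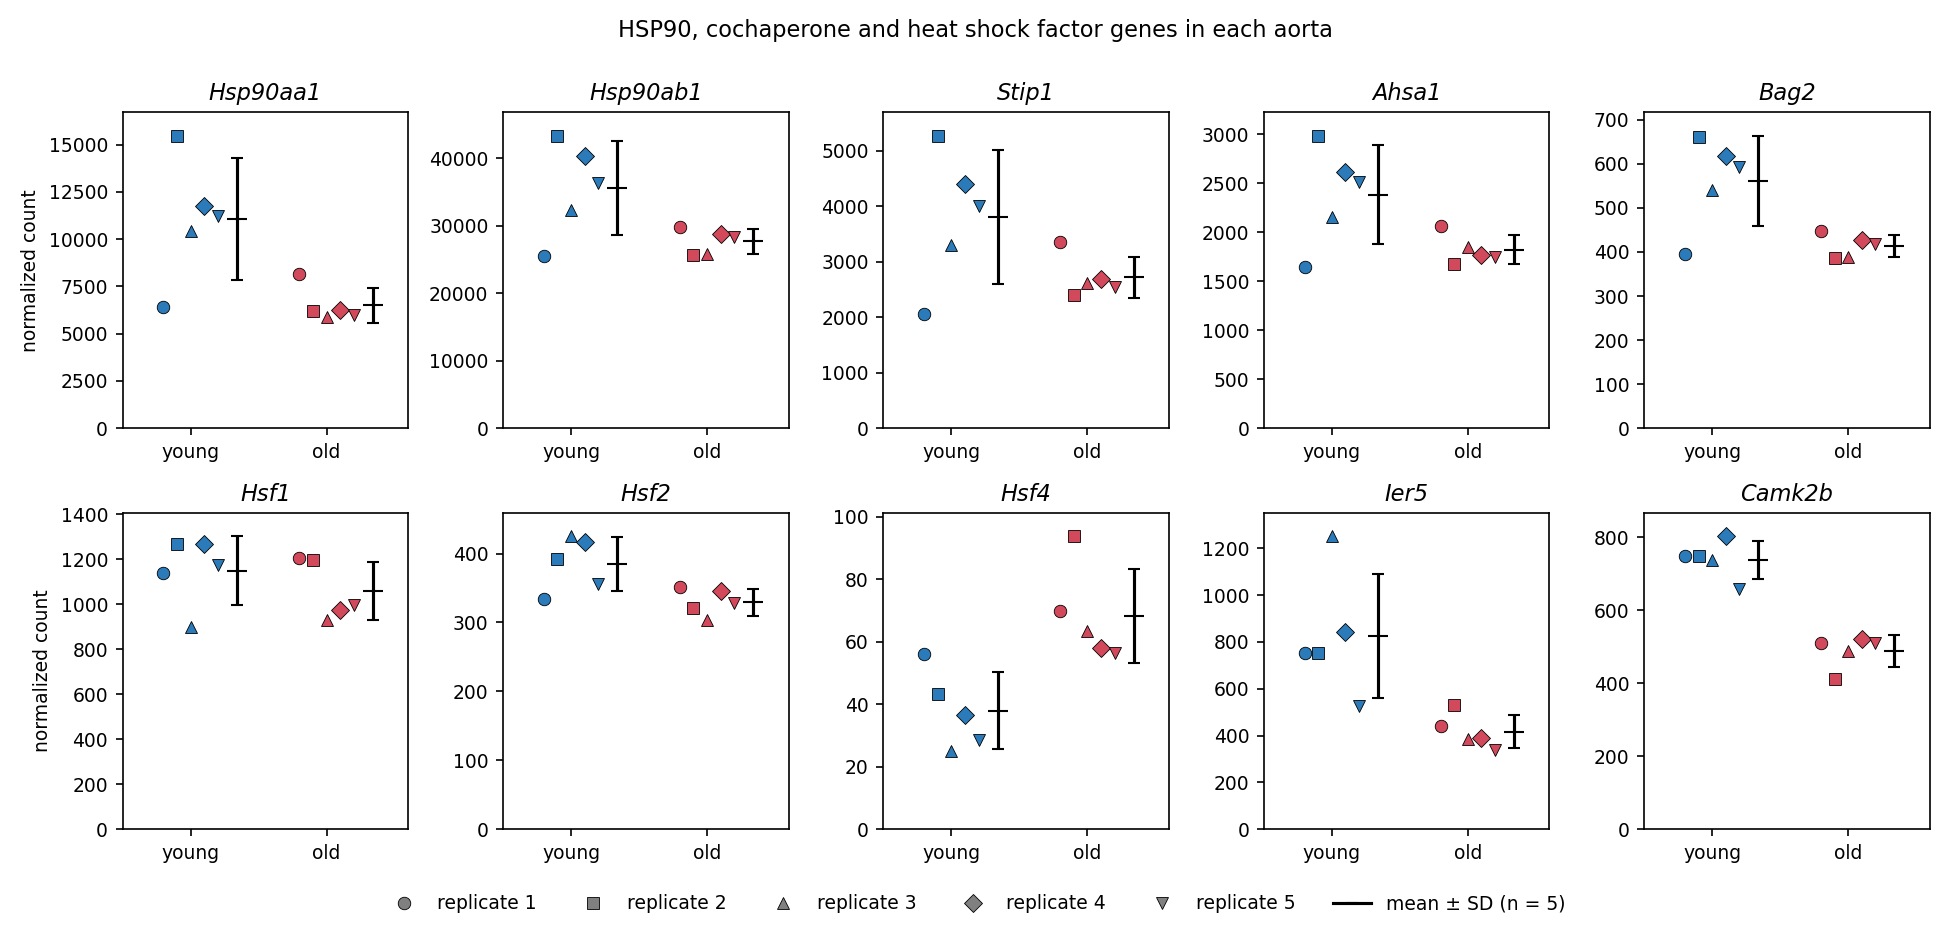
Normalized counts (y axis, linear, from 0) of the 10 genes in each young (blue) and old (red) aorta, with 1 symbol per mouse and the mean ± SD over 5 mice as black bars. Camk2b and Hsf4 are the genes whose groups do not overlap, and young replicate 1 (circle) lies at the old level for Hsp90aa1, Hsp90ab1, Stip1, Ahsa1 and Bag2.

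Hsp90aa1 encodes the stress-inducible cytosolic HSP90 (HSP90α) and lies on the reverse strand of chr12:110690605-110702728 of GRCm38. Its normalized counts were 6411, 15482.5, 10457, 11772 and 11215 in young replicates 1 to 5, and 8149.54, 6212, 5906, 6267 and 5978 in old replicates 1 to 5. Old replicates 2 to 5 were below every young mouse, and old replicate 1 was above young replicate 1 only. The mean was 11068 ± 3243 (SD, n = 5) in young and 6503 ± 933 (SD, n = 5) in old mice. Its log2 fold change came to -0.76 (SE 0.19), with an adjusted p of 0.0300 by edgeR, which became 0.000992 without young replicate 1 (log2 fold change -0.90). Hsp90aa1 was called in 4 of the 10 fits that left out 1 mouse, and the adjusted p by edgeR rose to 0.0717 without old replicate 3.

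Hsp90ab1 encodes the constitutive cytosolic HSP90 (HSP90β; chr17:45567775-45573271, reverse strand). It had 25550.3, 43405, 32352, 40374 and 36290.4 normalized counts in young replicates 1 to 5, and 29888, 25735, 25806, 28782 and 28350.2 in old replicates 1 to 5. All 5 old values fell between young replicate 1, the lowest of the 10 mice, and young replicate 3. The means were 35594 ± 6995 (SD, n = 5) and 27712 ± 1859 (SD, n = 5), and the log2 fold change of -0.35 (SE 0.12) did not pass the test (adjusted p = 0.0769, edgeR). Without young replicate 1 it was -0.45 (SE 0.09) with an adjusted p of 0.00511 by edgeR, and the 4 young mice then lay above all old mice. With young replicate 4 left out instead, the log2 fold change was -0.30 (adjusted p = 0.180, edgeR), the highest adjusted p without 1 mouse.

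The last codons of both HSP90 coding sequences are shown because they encode the tail at which STIP1 and other cochaperones with tetratricopeptide repeats dock on HSP90. Sequences are from the GENCODE M21 transcripts on GRCm38, 5′ to 3′, with the last 5 codons before the stop codon in capitals.
Hsp90aa1: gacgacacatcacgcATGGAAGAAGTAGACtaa
Hsp90ab1: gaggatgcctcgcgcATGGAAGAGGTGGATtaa
In capitals 3 of 15 bases differed. Over the 2173 aligned bases of the coding sequences (2202 bases in Hsp90aa1 and 2175 in Hsp90ab1) 76.8% were identical, and no window of 50 bases was shared between them. Of all 50-base windows of Hsp90aa1 transcripts, however, 47.5% occurred in other genes, 41.8% in the processed pseudogene Gm12346 (chr11:77293444-77295898). For this pseudogene the mean normalized count was 7.63 in young mice and 5.88 in old mice. How the counting treated reads that match both was not stated, so the Hsp90aa1 level is uncertain to that extent. The share was 3.44% for Hsp90ab1, 5.59% for Stip1, 4.67% for Ahsa1, 2.72% for Bag2 and at most 0.694% for the other 5 genes.

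The balance between the inducible and the constitutive gene was lower in old aortae. The ratio of Hsp90aa1 to Hsp90ab1 counts, which scaling between libraries cannot change, was 0.251, 0.357, 0.323, 0.292 and 0.309 in young replicates 1 to 5 and 0.273, 0.241, 0.229, 0.218 and 0.211 in old replicates 1 to 5. Young replicate 1 was below old replicate 1, and the other young mice were above all old mice. The mean fell from 0.306 ± 0.0391 to 0.234 ± 0.0244 (SD, n = 5 each; exact two-sided permutation test, p = 0.0159, and 0.0476 after Benjamini-Hochberg adjustment over 3 ratios). The smallest p that 5 against 5 mice allow is 0.00794. The young mean without young replicate 1 was 0.320 ± 0.0276 (SD, n = 4; exact two-sided permutation test, p = 0.0159). That is the smallest p that 4 against 5 mice allow. It had to be reached, because leaving out young replicate 1 removes the only overlap between the groups, so it adds no support. With any mouse other than young replicate 1 or old replicate 1 left out, the overlap remains, and p cannot be the smallest possible. Together the HSP90 genes took 0.212% ± 0.0421 of all counts in young libraries and 0.160% ± 0.0109 in old ones (SD, n = 5 each), and 0.227% ± 0.0291 in young libraries without young replicate 1 (SD, n = 4).

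No difference between ages was detected in the proportion of the HSP90 cochaperone genes Stip1 and Ahsa1 to HSP90. Stip1 (chr19:7020702-7039967, reverse strand) had 2059, 5269.85, 3290.2, 4392 and 4007 normalized counts in young replicates 1 to 5 and 3358, 2394, 2615, 2681 and 2539 in old replicates 1 to 5. Young replicate 1 was the lowest of the 10 mice, and old replicate 1 was above young replicate 3. The log2 fold change was -0.48 (SE 0.21; adjusted p = 0.183, edgeR), and -0.63 (SE 0.13; adjusted p = 0.009996, edgeR) without young replicate 1. With young replicate 2 left out instead, it was -0.33 (adjusted p = 0.353, edgeR), the highest adjusted p without 1 mouse. The ratio of Stip1 to summed HSP90 counts was 0.0799 ± 0.00974 among young mice and 0.0792 ± 0.00604 among old mice (SD, n = 5 each; exact two-sided permutation test, p = 0.897). Without young replicate 1, the lowest in this ratio, the young mean was 0.0837 ± 0.0052 (SD, n = 4; exact two-sided permutation test, p = 0.270).

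Ahsa1 (chr12:87266479-87273998, forward strand) had 1648, 2987, 2157, 2613 and 2514 normalized counts in young replicates 1 to 5 and 2065, 1675, 1846, 1768 and 1750.02 in old replicates 1 to 5. Again young replicate 1 was the lowest of the 10 mice, and the other young mice were above all old mice. Its log2 fold change was -0.38 (SE 0.13; adjusted p = 0.0856, edgeR), and -0.49 (SE 0.09; adjusted p = 0.00326, edgeR) without young replicate 1. With young replicate 4 left out instead, it was -0.35 (adjusted p = 0.181, edgeR), the highest adjusted p without 1 mouse. The ratio of Ahsa1 to summed HSP90 counts varied little, 0.0511 ± 0.00114 among young mice and 0.0533 ± 0.00314 among old mice (SD, n = 5 each; exact two-sided permutation test, p = 0.190). With young replicate 1 left out, the young mean was 0.0510 ± 0.00129 (SD, n = 4) and the exact permutation p was 0.206.

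**Figure D2:**
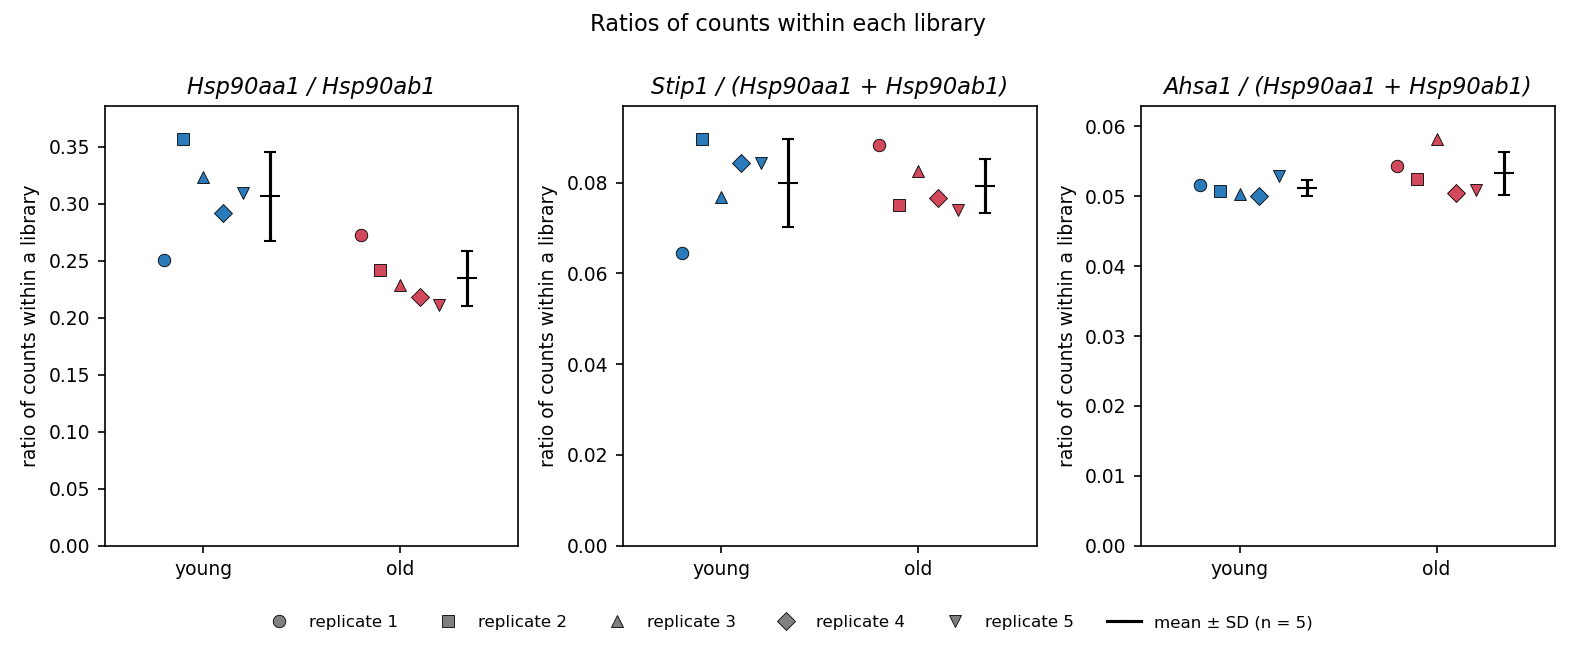
Ratios of counts within each library (y axes, no unit, from 0) for young (blue) and old (red) aortae, 1 symbol per mouse, with the mean ± SD over 5 mice as black bars. The Hsp90aa1 to Hsp90ab1 ratio has a young mean of 0.306 and an old mean of 0.234, while the Stip1 and Ahsa1 ratios of young and old mice overlap.

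Bag2 encodes a BAG-domain protein that binds HSP70 and inhibits the ubiquitin ligase CHIP (chr1:33745484-33757795, reverse strand). Its normalized counts were 395, 661, 540.4, 618 and 592 in young replicates 1 to 5 and 447, 386, 389.6, 427 and 418 in old replicates 1 to 5. Young replicate 1 lay among the old mice, and the other young mice were above all old mice. The mean was 561 ± 103 (SD, n = 5) in young and 413 ± 25.7 (SD, n = 5) in old mice, and the log2 fold change came to -0.43 (SE 0.12; adjusted p = 0.0288, edgeR). Without young replicate 1 the adjusted p by edgeR was 0.000688. Bag2 was called in 3 of the 10 fits that left out 1 mouse, with an adjusted p of 0.0759 by edgeR without young replicate 4.

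Hsp90aa1, Hsp90ab1, Stip1, Ahsa1 and Bag2 shared an order of mice. The choice of the 10 genes did not use this order, but these 5 are set apart here because they show it. Young replicate 2 was the highest young mouse in 5 of the 10 genes, these 5 (16.3% of all tested genes). Young replicate 1 was the lowest young mouse in 6 of the 10, these and Hsf2 (28.2% of all). Old replicate 1 was the highest old mouse in 7 of the 10, these, Hsf1 and Hsf2 (17.8% of all). As a description of likeness, Pearson's r to Hsp90aa1 was computed on log2 CPM over the 10 mice after the mean of each age group was removed, with 5 mice a group. Stip1 took place 3 among 14613 other genes (r = 0.975), Ahsa1 place 8 (0.961), Bag2 place 18 (0.947) and Hsp90ab1 place 36 (0.93). Hsf2 took place 1486 (0.628), Hsf1 place 3419 (0.392), Camk2b place 6372, Ier5 place 6799 and Hsf4 place 9931. Much of this rested on young replicates 1 and 2, the mice farthest from the rest: without them r was 0.869 for Stip1, 0.785 for Ahsa1, 0.738 for Bag2 and 0.640 for Hsp90ab1. The other genes then had an r of 0.659 (Hsf1), 0.391 (Hsf2), 0.311 (Hsf4), 0.235 (Camk2b) and 0.0234 (Ier5), so that Hsf1 stood above Hsp90ab1. The 5 genes most like Hsp90aa1 were P4ha1 (a subunit of collagen prolyl hydroxylase; r = 0.986), Fxr1 (an RNA-binding protein; 0.977), Stip1, St13 (the HSP70 cochaperone HIP; 0.966) and Hspb1 (the small heat shock protein HSP27; 0.965).

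**Figure D3:**
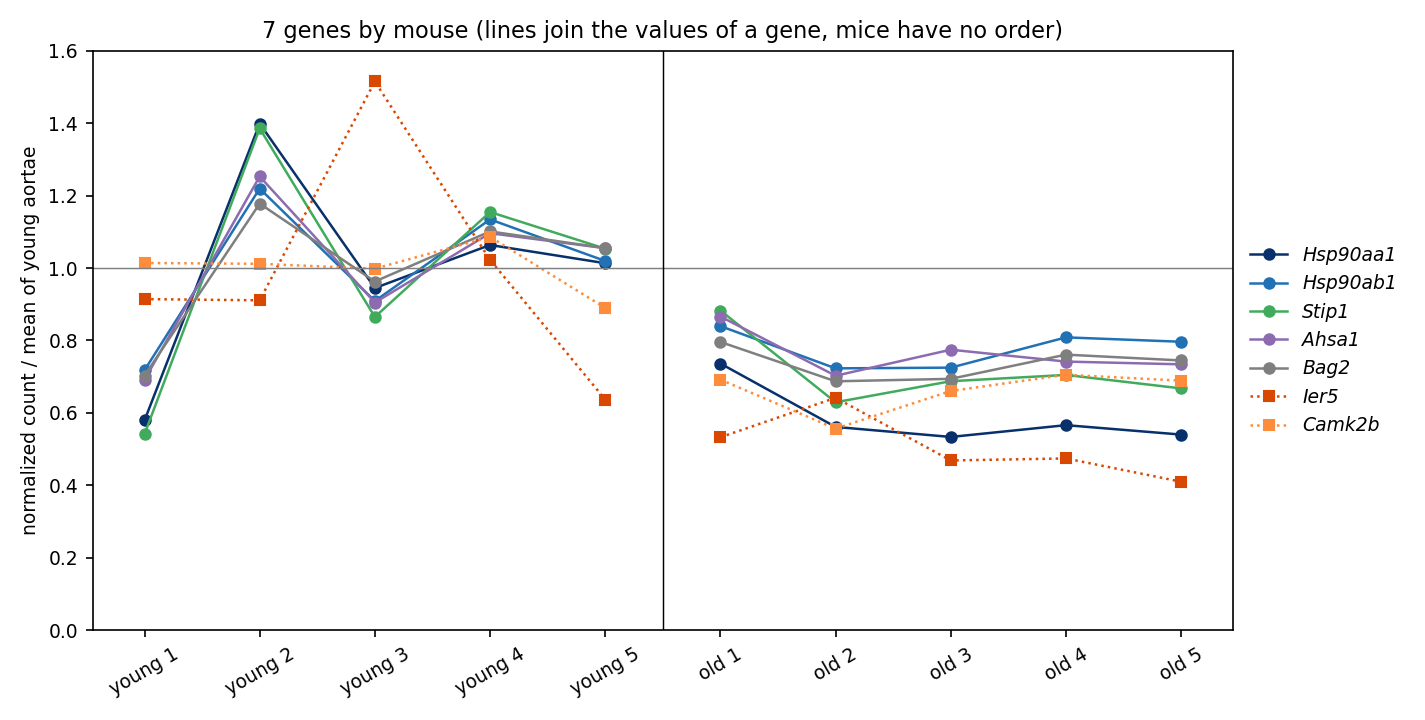
Normalized count divided by the mean of the young aortae (y axis, no unit) for 7 genes in each mouse (x axis), with circles and full lines for Hsp90aa1, Hsp90ab1, Stip1, Ahsa1 and Bag2 and squares and dotted lines for Ier5 and Camk2b. The first 5 genes share their low point in young replicate 1 and their high point in young replicate 2, and Ier5 and Camk2b do not.

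Promoters are shown for Stip1, Ahsa1 and Bag2, which varied with Hsp90aa1 between mice, and for Ier5, whose r to Hsp90aa1 was 0.03. They are the 250 bases before the RefSeq start on GRCm38.p6, 5′ to 3′ on the strand of the gene, at chr19:7040027-7040276 for Stip1, chr12:87266478-87266727 for Ahsa1, chr1:33757751-33758000 for Bag2 and chr1:155099637-155099886 for Ier5, with CCAAT boxes (CCAAT, or ATTGG on the other strand) in capitals. RefSeq and GENCODE place the start of Stip1, Ahsa1, Bag2 and Camk2b at different bases: by the GENCODE gene bounds, the Ahsa1 window but for its first base and the whole Camk2b window lie inside the gene, and the Bag2 window lies partly inside.
Stip1: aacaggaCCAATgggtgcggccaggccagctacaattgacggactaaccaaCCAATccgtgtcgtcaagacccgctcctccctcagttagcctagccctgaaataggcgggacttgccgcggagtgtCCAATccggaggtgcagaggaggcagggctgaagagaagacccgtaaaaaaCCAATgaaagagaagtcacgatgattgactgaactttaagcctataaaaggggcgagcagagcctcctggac
Ahsa1: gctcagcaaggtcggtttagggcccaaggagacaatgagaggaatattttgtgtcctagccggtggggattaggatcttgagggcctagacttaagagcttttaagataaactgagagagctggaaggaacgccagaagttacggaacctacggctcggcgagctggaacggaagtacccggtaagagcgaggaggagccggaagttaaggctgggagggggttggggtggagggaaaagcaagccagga
Bag2: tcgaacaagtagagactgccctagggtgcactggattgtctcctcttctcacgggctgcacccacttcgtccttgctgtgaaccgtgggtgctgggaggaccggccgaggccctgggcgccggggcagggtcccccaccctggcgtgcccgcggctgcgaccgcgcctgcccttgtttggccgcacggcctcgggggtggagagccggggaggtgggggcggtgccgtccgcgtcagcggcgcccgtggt
Ier5: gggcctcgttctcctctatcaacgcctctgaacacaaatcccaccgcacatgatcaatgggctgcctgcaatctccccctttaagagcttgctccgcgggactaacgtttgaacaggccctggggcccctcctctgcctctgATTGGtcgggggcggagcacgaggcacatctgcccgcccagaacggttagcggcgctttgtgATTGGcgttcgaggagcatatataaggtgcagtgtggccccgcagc
Promoters of 6 of the 10 genes were matched, these and those of Hsf2 and Camk2b. The Stip1 window held 4 CCAAT boxes, Hsf2 and Ier5 held 2 each, and Ahsa1, Bag2 and Camk2b held 0, where 33.8% of 32851 promoter windows held at least 1. None of the 6 windows held the inverted heat shock element GAANNTTC or TTCNNGAA (12.8% of all windows). That says only that these letters are not in these windows.

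Of the heat shock factor genes, Hsf4 was called and Hsf1 and Hsf2 were not. The paper states for these factors as a family, without naming each, that they were not significantly regulated. The Hsf4 call differs from that statement, and DESeq2 called Hsf4 here as well (adjusted p = 0.00746). Hsf1, the main stress-responsive factor (chr15:76477422-76501913, forward strand), had 1139, 1268, 899, 1269.85 and 1176 normalized counts in young replicates 1 to 5 and 1204, 1196, 928, 973 and 998 in old replicates 1 to 5. The groups overlapped, with the lowest value in young replicate 3. The log2 fold change was -0.11 (SE 0.10; adjusted p = 0.541, edgeR), and -0.12 (SE 0.11; adjusted p = 0.534, edgeR) without young replicate 1. Hsf2, a factor that forms heterotrimers with HSF1 (chr10:57486385-57513135, forward strand), had 333, 392, 425, 417 and 356 in young and 351, 320.4, 303, 346 and 328 in old replicates 1 to 5. Its young replicate 1 lay among the old mice. The log2 fold change was -0.22 (SE 0.08; adjusted p = 0.119, edgeR), and -0.26 (SE 0.08; adjusted p = 0.0417, edgeR) without young replicate 1. With young replicate 4 left out instead, it was -0.19 (adjusted p = 0.254, edgeR), the highest adjusted p without 1 mouse.

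Hsf4, known for its role in the lens (chr8:105269801-105275845, forward strand), was the only one of the 10 genes with a higher mean in old aortae. It had 56.2, 43.3, 24.9, 36.7 and 28.7 normalized counts in young replicates 1 to 5 and 69.95, 93.7, 63.4, 57.8 and 56.4 in old replicates 1 to 5. The groups did not overlap, but young replicate 1 at 56.2 nearly met old replicate 5 at 56.4. The mean rose from 38.0 ± 12.4 to 68.3 ± 15.2 (SD, n = 5 each), a log2 fold change of 0.85 (SE 0.23; adjusted p = 0.0317, edgeR), and 1.03 (SE 0.22; adjusted p = 0.00905, edgeR) without young replicate 1. These values rest on 189 counts in all young and 342 in all old libraries. Hsf4 was called in 3 of the 10 fits that left out 1 mouse.

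Ier5 and Camk2b were the genes whose calls held without any one mouse. Ier5, an immediate early gene whose protein brings phosphatase PP2A to HSF1 and activates it (chr1:155096361-155099636, reverse strand), had 754, 752, 1250.3, 844 and 526 normalized counts in young replicates 1 to 5 and 439.7, 529.6, 387, 391 and 338 in old replicates 1 to 5. Old replicate 2 was above young replicate 5, and the other old mice were below all young mice. The mean fell from 825 ± 265 to 417 ± 72.4 (SD, n = 5 each), with a log2 fold change of -0.98 (SE 0.21; adjusted p = 0.0133, edgeR). The highest adjusted p by edgeR without 1 mouse was 0.0395.

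Young replicate 3, the highest in Ier5, also had the highest summed endothelial markers (Pecam1, Cdh5, Tie1, Tek and Vwf) of all mice, 1517 CPM. Old replicate 2, the highest old mouse in Ier5, had the highest endothelial sum of the old mice, 1014. The other mice of each group did not keep the same order in both. In young replicates 1, 2, 4 and 5 the endothelial sum was 1266, 855, 927 and 940, where Ier5 was 754, 752, 844 and 526. In old replicates 1, 3, 4 and 5 it was 578, 443, 734 and 512, where Ier5 was 439.7, 387, 391 and 338. The sum ranged from 855 to 1517 in young and from 443 to 1014 in old aortae, and all 5 markers had a log2 fold change below 0. Of the 5, 1, Tek, was called lower by edgeR (4.99% of all tested genes). All 5 were lower at an unadjusted p below 0.05 (12.6% of all), and 4 were called lower by DESeq2 (6.33% of all). The edgeR count was 5 without old replicate 2 and 0 without any one of young replicates 1, 3 and 5 and old replicates 1, 3 and 5. The part of these markers in the Ier5 result was not tested.

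Camk2b, the β chain of calcium/calmodulin-dependent kinase II, which can phosphorylate HSF1 (chr11:5969644-6066362, reverse strand), gave the smallest p of the 10 genes. It had 748, 747, 737, 802 and 657 normalized counts in young replicates 1 to 5 and 511, 411, 487, 521 and 508 in old replicates 1 to 5. All 5 old mice were below all young mice, as in 4.55% of all tested genes, and young replicate 1 was at 102% of the mean of the other young mice. The mean fell from 738 ± 52.0 to 488 ± 44.6 (SD, n = 5 each), with a log2 fold change of -0.59 (SE 0.08; adjusted p = 0.000375, edgeR), and the highest adjusted p by edgeR without 1 mouse was 0.00159.

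Camk2b is best known from neurons and striated muscle. Neuron markers (Snap25, Syt1, Rbfox3, Tubb3 and Stmn2) summed to 8.31 to 17.1 CPM in young and 9.53 to 15.2 in old aortae, and of the 2 tested, Tubb3 was called higher. Skeletal muscle markers (Acta1, Ckm, Myh1, Myh2, Myh4, Mylpf, Tnnt3 and Tnni2) summed to 7.66 to 51.2 in young, with the highest value in young replicate 2, and 9.31 to 12.8 in old aortae, and 0 of 4 tested were called by edgeR, at an unadjusted p below 0.05 or by DESeq2. Of these lists Snap25 had a median of 0 in young aortae and Myh4 a median of 0 in old aortae. Heart muscle markers (Myh6, Actc1, Tnnt2, Tnni3, Myl7 and Nppa) summed to 13.8 to 30.7 in young and 25.8 to 75.1 in old aortae. Of the 3 tested, Actc1 was called lower and Tnnt2 higher, and Myl7 and Nppa had medians of 0 in both groups. Of all tested genes, 6.48% were called higher and 4.99% lower. The part of the neuron and muscle markers in the Camk2b result was not tested.

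Among the chains of the kinase, Camk2b was called lower and Camk2g higher. Per kilobase of exonic sequence, Camk2b made up 10.3% ± 1.13 of the summed level of the 4 chain genes in young mice and 5.97% ± 0.578 in old mice (SD, n = 5 each). Camk2g took 72.5% ± 2.13 in young and 79.7% ± 0.731 in old aortae, and Camk2d took 17.02% ± 1.32 and 14.0% ± 0.196, also with no overlap between the groups. The shares depend on each other, and the normalized counts of Camk2d overlapped between the groups (log2 fold change -0.08, adjusted p = 0.434, edgeR). In the list of the other chain genes, kinase inhibitors and calmodulins, 2 of 8 tested genes were called higher and 0 lower by edgeR (3 and 0 at an unadjusted p below 0.05, 2 and 0 by DESeq2), against 6.48% and 4.99% of all tested genes: Camk2g (log2 fold change 0.33, adjusted p = 0.00598) and Camk2n1, a kinase inhibitor (0.32, adjusted p = 0.0106). Calm2, a calmodulin gene (0.19), did not pass the test. The median log2 fold change of the list was 0.13.

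**Figure D4:**
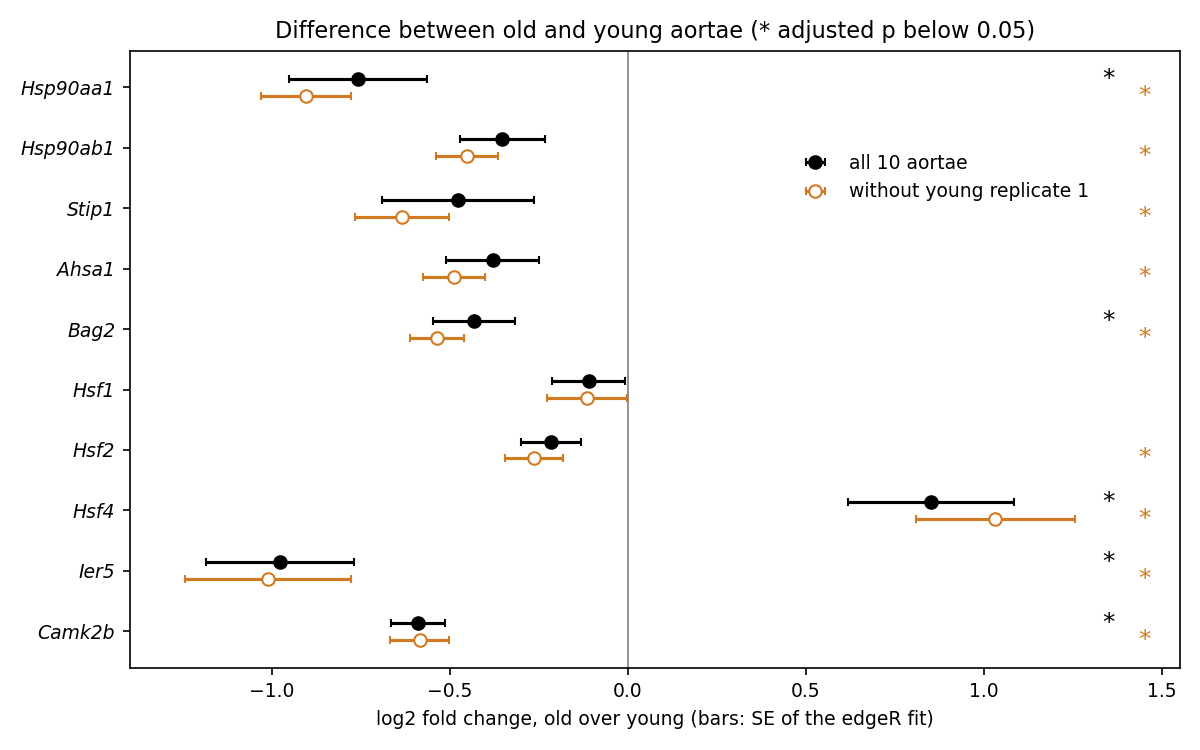
Log2 fold change of old over young aortae (x axis) with its standard error from the edgeR fit, for all 10 aortae (black) and without young replicate 1 (open orange), with a star in the same color where the adjusted p was below 0.05. With all mice 5 genes carry a star (4 lower, 1 higher), and without young replicate 1 all genes but Hsf1 do.

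In CPM per kilobase of exonic sequence, the 10 genes spanned a wide range of levels. In young aortae the medians ran from Hsp90ab1 at 542 through Hsp90aa1 at 128, Stip1 at 85.2, Ahsa1 at 25.7, Ier5 at 11.0, Bag2 at 8.67, Hsf1 at 7.63, Camk2b at 3.71 and Hsf2 at 1.83 to Hsf4 at 0.949. Compared within each library, the order from Hsp90ab1 through Hsp90aa1, Stip1 and Ahsa1 to Ier5, and from Hsf1 through Camk2b to Hsf2, was the same in 10 of 10 mice. Ier5 was above Bag2 in 4 of 5 young and 1 of 5 old mice, and Bag2 above Hsf1 likewise in 4 of 5 young and 1 of 5 old mice, with overlapping ranges. Hsf2 was above Hsf4 in 5 of 5 young and 2 of 5 old mice.

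The other genes of the pathway showed which groups shared the lower levels. The HSP90 paralogs of other compartments did not pass the test, nor an unadjusted p below 0.05 or DESeq2: Hsp90b1, of the endoplasmic reticulum, had a log2 fold change of 0.07, and Trap1, of mitochondria, one of 0.02. Of 27 tested HSP90 cochaperones 3 were called lower and 0 higher by edgeR (median log2 fold change -0.01, above 0 under upper-quartile and library-size scaling), against 4.99% of all tested genes called lower. At an unadjusted p below 0.05, 6 were lower (12.6% of all) and 0 higher, DESeq2 called 4 lower (6.33% of all) and 0 higher, and 7 were called lower without young replicate 1 (7.73% of all). The 3 called with all mice were Ptges3, the cochaperone p23 (log2 fold change -0.43, adjusted p = 0.0114), Fnip2, a folliculin partner that slows the ATPase of HSP90 (-0.45, adjusted p = 0.0146), and Cacybp, which also binds the ubiquitin ligase adaptor SKP1 (-0.71, adjusted p = 0.0216). The most abundant of the list that were not called were Cdc37, the kinase cochaperone (0.05), and Fkbp8 (0.02).

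Lower levels were also found for genes that HSF1 is known to induce. In the list of 23 HSF1 targets 13 were called lower and 0 higher by edgeR, against 4.99% of all tested genes, with a median log2 fold change of -0.54. At an unadjusted p below 0.05 these were 19 (12.6% of all) and 0, and by DESeq2 16 (6.33% of all) and 0. The count called lower by edgeR was 20 without young replicate 1 (7.73% of all), 7 without young replicate 4, 8 without old replicate 2 and 7 without old replicate 3. Of all genes, 474, 667 and 577 were called lower in the last 3 of these fits. Many of the 23 were named by the study from these samples, which is not independent evidence of their direction, and Ptges3, Cacybp, Chordc1 and Fkbp4 are also in the cochaperone list and Bag3 in the BAG list. Of those with the smallest p, Hspb8, a small heat shock protein that works with BAG3, had a log2 fold change of -0.52 (adjusted p = 0.00731, edgeR). Serpinh1, the collagen chaperone HSP47, had one of -0.54 (adjusted p = 0.0102, edgeR). Hspa8 (-0.66, adjusted p = 0.0588, edgeR) and Hsph1 (-1.09, adjusted p = 0.0853, edgeR), constitutive HSP70 and an HSP110 family member, were the most abundant that did not pass the test. The summed level of the 23 genes was 5356 CPM in young replicate 1, within the old range of 4261 to 5552, and 7110.2 to 10119.5 in the other young mice.

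Of 19 tested HSF1 regulators 0 were called lower and 1 higher by edgeR, against 4.99% and 6.48% of all tested genes, and 3 were called lower without young replicate 1 (7.73% of all). The gene called higher was Ier5l, the paralog of Ier5, with a log2 fold change of 1.01 (adjusted p = 0.00730) and no overlap between the groups. At an unadjusted p below 0.05, 4 were lower and 2 higher, as were 1848 and 2054 of 14614 tested genes. DESeq2 called 2 lower and 1 higher, and 1085 and 1240 of all genes. Vcp (-0.02) and Ppp2ca, a catalytic subunit of PP2A (-0.20), did not pass the test, and the median of the list was -0.06. Hsbp1, which binds HSF1 trimers (0.03), and Hsf2bp (0.90, adjusted p = 0.115, edgeR) were the 2 tested relatives, and neither passed the test. Of the 5 other BAG genes 1 was called lower by edgeR, against 4.99% of all tested genes. It was Bag3, which links small heat shock proteins to HSP70 and autophagy (log2 fold change -0.89, adjusted p = 0.0279). The Bag3 call was lost without any one of young replicates 3 and 4 and old replicates 2 and 3, and Bag6 (0.06) and Bag1 (-0.09) did not pass the test.

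**Figure D5:**
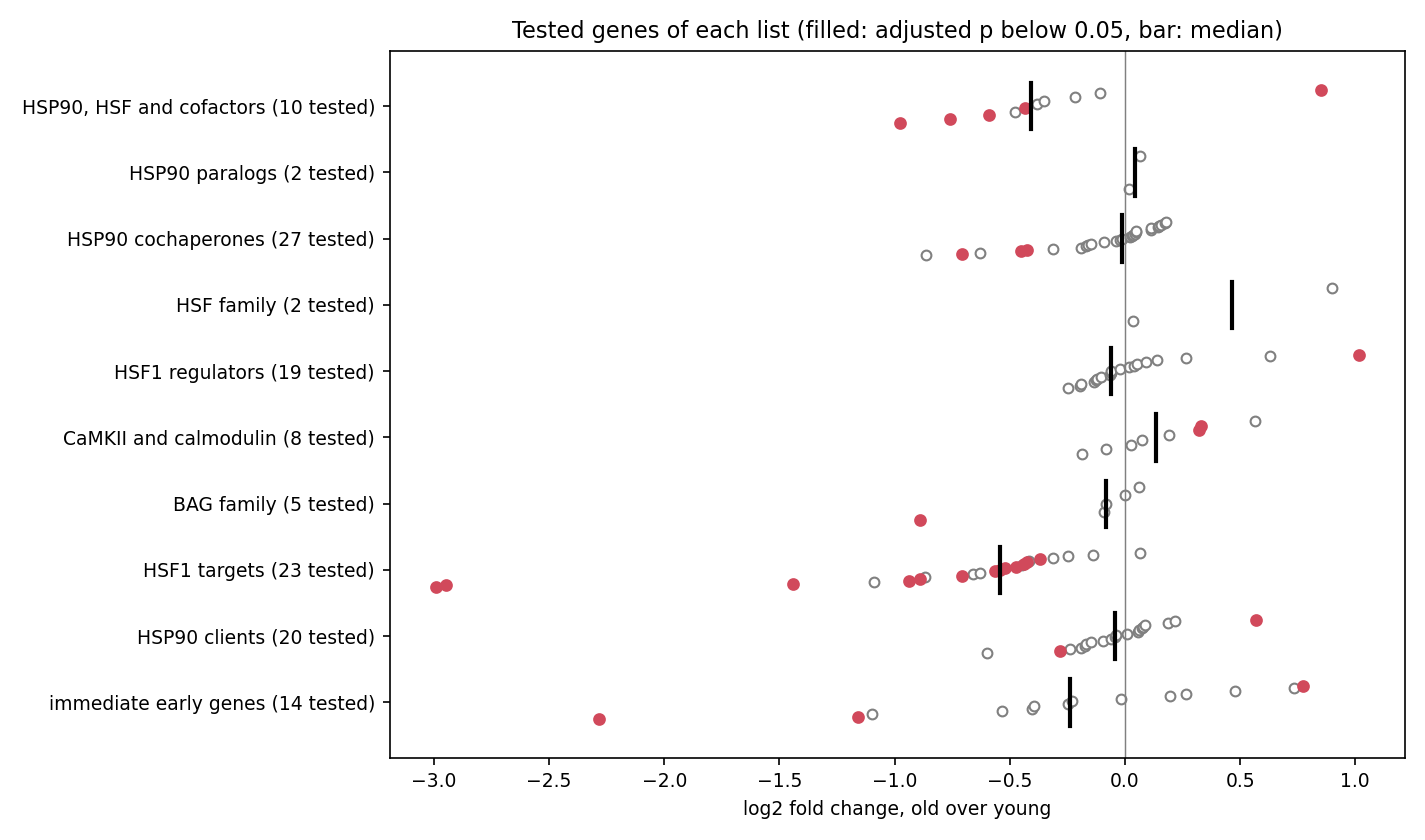
Log2 fold change of old over young aortae (x axis) for each tested gene of the 10 described here and of 9 pathway lists (y axis, number tested in brackets), filled where the adjusted p by edgeR was below 0.05, with the median of each list as a black bar. The HSF1 targets have the lowest median, -0.54, with 13 of 23 filled, and the medians of the HSP90 paralogs and cochaperones lie near 0 (0.04 and -0.01).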

How the data were processed

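RNA was extracted from 10 mouse aortae and sequenced as stranded poly(A) libraries, 1 per mouse. Per the labels and the paper's methods, reads were trimmed with fastp 0.20.0, aligned to GRCm38 with STAR 2.7.0f and counted per gene with featureCounts of Subread 1.6.4 (GENCODE M22). The deposited table holds the authors' raw counts for 55453 gene symbols, with no normalization. The strand setting and the treatment of reads with several alignments are not given in the sources used here. Of the symbols, 54402 matched 1 gene of GENCODE M21 on GRCm38, 108 matched several and 943 none.

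Genes were filtered with filterByExpr, which kept 14614 of 28011 genes with a count, and old and young aortae were compared with the quasi-likelihood F test of edgeR 4.0.16 (robust, TMM scaling, no covariate, R 4.3.3). Benjamini-Hochberg adjustment covered all tested genes, and the threshold was 0.05. On simulated counts with 200 genes changed by a log2 fold of 1 (14491 genes left after the filter), edgeR called 167 of 194 changed and 17 unchanged genes. Size factors from DESeq2 1.42.0 gave the normalized counts. Each of 3 count ratios was tested by exact two-sided permutation of the 10 mice (252 assignments).

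Libraries held 19640401 to 22886153 counts, and their number of mice more than depth sets the precision: pairs of libraries of 1 group differed 8.06 to 58.8 times more than counting error gives (chi-square over degrees of freedom, 20 pairs). The groups are those of the labels, and replicate numbers are those of the sample titles. Alternatives were DESeq2, limma-voom (limma 3.58.1) with and without sample quality weights, other scalings and filters, a replicate block, a GC and length correction, a stricter threshold and leaving out each mouse. Non-overlap without young replicate 1 and likeness without 2 mice were added after seeing the data.

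The 10 genes and the pathway and marker lists were chosen with earlier results of these data known. All 10 genes are named. From each pathway list the text names, among the called genes, the 3 with the smallest p in each direction and the 2 most abundant that were not called, and for likeness the 5 genes with the highest r. Some genes that this rule names are not reported here. Other genes, such as Tek, Cd3g, Tubb3 and the muscle markers, were named after their values were seen.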

Additional observations from a re-analysis of the deposited data

Results flagged for a closer look

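Within the old group, Hsp90aa1 stood out in old replicate 1, the highest of the 5 old mice at 8149.54 normalized counts, where the other old mice had 5906 to 6267. The gap to the next mouse was 0.839 of the whole range of the group, above the limit of Dixon's test for 5 samples. Chance alone passes that limit in about 1 of 20 groups, and 26 groups were examined. Without old replicate 1 the Hsp90aa1 log2 fold change was -0.85 (adjusted p = 0.0250, edgeR), against -0.76 with all mice. The same mouse was the highest old mouse for Hsf1, Hsf2, Hsp90ab1, Stip1, Ahsa1 and Bag2, where the gap was within the limit.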

How the results depend on the processing

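No log2 fold change of the 10 genes changed sign under any of 22 alternatives, and of 220 values 182 kept their side of the threshold, 29 lost and 9 gained the call. Camk2b kept its call under all 22, and Ier5 lost it only at an adjusted p below 0.01. The number of genes called lower, 4 with all mice, was 7 by limma-voom with sample quality weights and 1 at an adjusted p below 0.01. It ranged from 2 to 8 without 1 mouse. The number called higher, 1, was 0 at an adjusted p below 0.01 and ranged from 0 to 1 without 1 mouse. DESeq2 called 6 genes lower, adding Hsp90ab1 and Ahsa1, and 6.33% of all genes it tested. Without the filter on low counts the adjusted p of Hsp90aa1 was 0.0964 by edgeR. The difference in the Stip1 to HSP90 ratio (old minus young, -0.000638) turned positive without any one of young replicates 2, 4 and 5 and old replicates 2, 4 and 5, and ranged from -0.0045 to 0.00177 without 1 mouse. The cause of these shifts was not tested.

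The same numbers recur in both age groups, but mice with the same number did not deviate together (correlation of deviations from the group means -0.3 to 0.132 over 5 numbers), so that they share only a number. With the replicate block 2 genes (Ier5 and Camk2b) were called lower and 1 (Hsf4) higher, and 2 lower with the block and the GC and length correction. With 5 mice a group, 1 mouse can decide a call, and Hsf4 is further limited by its low counts.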

Other observations

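Among 20 known HSP90 client genes, 1 was called lower by edgeR, near the 4.99% of all tested genes, 3 without young replicate 1 (7.73% of all) and 5 by DESeq2 (6.33% of all). Gucy1b1, the β subunit of soluble guanylate cyclase, had 5929 ± 544 normalized counts in young mice and 4849 ± 148 in old mice (SD, n = 5 each; log2 fold change -0.28, adjusted p = 0.0155, edgeR). Ilk (-0.15) and Tgfbr2 (0.09), the most abundant clients that were not called, did not pass the test. The median log2 fold change of the clients was -0.04.

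Of 14 immediate early genes 2 were called lower and 1 higher by edgeR, against 4.99% and 6.48% of all tested genes. Without young replicate 1 these counts were 2 and 3 (1139 and 1228 of all genes), and by DESeq2 3 and 2 (1085 and 1240 of all genes). Among them the log2 fold change was -2.28 for Atf3, a stress-induced transcription factor, and -1.16 for Fosb (adjusted p = 0.0337, edgeR), and it was 0.77 for Junb (adjusted p = 0.00957, edgeR). Dusp1 (-0.25) and Egr1 (0.20) did not pass the test. Fosb was called in 5 of the 10 fits that left out 1 mouse.

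The genes whose values followed Hsf1 most closely between mice were others than those that followed Hsp90aa1. With the group means removed over 10 mice, Pearson's r to Hsf1 was 0.979 for Syvn1, a ubiquitin ligase of the endoplasmic reticulum, 0.962 for Phyhd1, 0.954 for Farsa, and 0.951 for both Gm49493 and Ube2ql1. Gm49493 and Ube2ql1 rest on few counts, 49 and 86 in all young libraries and 45 and 72 in all old libraries. Hsp90aa1 took place 2921 among 14613 genes by its r to Hsf1 (r = 0.392, and 0.541 without young replicate 3 and old replicate 3). The lowest Hsf1 values were in young replicate 3 and old replicate 3.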
